A study of Mus musculus with 188 samples.

Results

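Cell cycle genes were followed across single keratinocytes of mouse tail skin, sorted as basal cells. The inhibitors were Cdkn1a (p21), Cdkn1b (p27), Cdkn1c (p57) and Cdkn2c (p18), and the D cyclins were Ccnd1, Ccnd2 and Ccnd3. The kinases of the D cyclins, Cdk4 and Cdk6, and the retinoblastoma gene Rb1 were included. These genes are 10 of the 49585 gene rows counted. They were chosen by symbol, matched to the Ensembl identifiers of the rows, and not by a filter on their values, though earlier results of these data were known. The cells came from the interfollicular epidermis, the skin between the hair follicles, at postnatal day 20. The mice carried Lrig1-CreERT2 and RosaYFP, a reporter whose inducible Cre follows Lrig1, a gene of the upper hair follicle. Cells were sorted as Cd34-/Itga6+/YFP-, so that bulge cells, cells without integrin alpha 6 and labelled Lrig1 descendants were left out. On each of 2 plates 94 cells were sequenced with Smart-seq2, a method for full-length cDNA of single cells. They form a single group, and the animals are not named. The cells therefore count as 1 sample and carry neither p-values nor standard errors.

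D-type cyclins bind Cdk4 and Cdk6, and the complexes phosphorylate the retinoblastoma protein, which releases E2F factors and lets a cell pass from G1 into S phase. The Cip/Kip proteins p21, p27 and p57 inhibit cyclin-bound Cdks, while p18 belongs to the Ink4 proteins, which bind Cdk4 and Cdk6 themselves. In mouse epidermis, p21 is known from studies of keratinocyte cell cycle exit. Krt10, a keratin that replaces the basal keratins as cells leave the basal layer, served as the measure of early differentiation. Mki67 and Top2a, a proliferation antigen and a topoisomerase of dividing cells, served as measures of cycling.

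The promoters of Cdkn1a and Krt10 are shown because this pair had the strongest relation of the 10 genes with Krt10, Mki67 or Top2a. RefSeq sequences on GRCm38.p6, from 250 bases before to 50 after the start, were available for 6 of the 10 genes. Cdkn1a had 2 start sites, both on the plus strand, and the gene counts do not tell their transcripts apart. The upstream window is chr17:29090729-29091028, the downstream window chr17:29093519-29093818, and the Krt10 window chr11:99389315-99389614 on the minus strand. All are printed 5′ to 3′. Capitals mark a pair of CATG separated by 6 bases in the first, GGGCGG in the second and TATAAA in the third.
Cdkn1a upstream start: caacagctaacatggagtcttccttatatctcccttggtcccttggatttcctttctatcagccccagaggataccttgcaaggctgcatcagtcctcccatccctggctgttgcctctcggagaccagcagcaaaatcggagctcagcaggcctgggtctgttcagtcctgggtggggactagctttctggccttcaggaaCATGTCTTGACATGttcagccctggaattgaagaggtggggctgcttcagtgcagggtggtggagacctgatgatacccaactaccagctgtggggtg
Cdkn1a downstream start: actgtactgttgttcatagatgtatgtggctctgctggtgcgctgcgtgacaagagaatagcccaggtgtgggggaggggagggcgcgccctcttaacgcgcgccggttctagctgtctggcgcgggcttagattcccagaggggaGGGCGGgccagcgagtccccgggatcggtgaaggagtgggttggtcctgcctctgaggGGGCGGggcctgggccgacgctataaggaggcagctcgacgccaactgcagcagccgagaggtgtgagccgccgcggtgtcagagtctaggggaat
Krt10: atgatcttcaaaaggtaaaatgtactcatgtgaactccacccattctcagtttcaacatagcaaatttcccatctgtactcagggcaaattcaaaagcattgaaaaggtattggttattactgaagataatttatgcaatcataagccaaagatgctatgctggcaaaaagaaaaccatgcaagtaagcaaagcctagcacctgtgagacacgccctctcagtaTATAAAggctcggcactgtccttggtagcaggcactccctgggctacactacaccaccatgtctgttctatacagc

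Motifs were searched on both strands, and none of them contains another. CATG forms the core of p53 half-sites, and a pair of CATG separated by 6 bases occurred once in the upstream Cdkn1a window and in 0.712% of all 32851 promoters of this length. GGGCGG, the GC box, had 2 matches in the downstream Cdkn1a window and occurred in 35.7% of promoters. TATAAA occurred in the Krt10 window and in 13.6% of promoters. TATAAG had 1 match in each Cdkn1a window, left in lower case, and occurred in 7.43% of promoters. The E2F motifs TTTCCCGC and TTTGGCGC, present in 1.07% and 0.514% of promoters, had no match in the windows of these genes. A match is a string of letters, not a measured site.

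Depth was 79868 to 1093805 counts over genes per cell, with a median of 369991, and the plates had medians of 366461 on plate 2 and 373722 on plate 1. Some reads had strayed between wells. Genes held almost wholly by 1 well put 0.281% of the source reads into each other well of the same lettered row on either plate. The shares were 0.119% for wells of the same column of the same plate and 0.00913% for other wells. Stray reads were thus also reckoned between plates, so the plates are not fully separate. Per cell, 2.98% to 50.6% of counts were expected to be stray, and the median share was 9.40%. A gene was therefore called above background in a cell if it had at least 10 CPM (counts per 1000000 counts over genes) and over 3 times its expected stray reads. Markers of T cells, Merkel cells and endothelial cells averaged 0.311, 0.0510 and 1.91 CPM summed over each list. Langerhans cell, melanocyte and fibroblast markers averaged 11.3, 15.5 and 26.03 CPM.

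Among the inhibitors, p21 was abundant and the others were scarce. Cdkn1a (ENSMUSG00000023067.13, chromosome 17, 29090976 to 29100727, plus strand, GRCm38 with GENCODE M21) had 7.70 to 2803 CPM, with a median of 305 and a mean of 479 ± 489 CPM (SD over cells). It was above background in 69.7% of cells, with an exact 95% interval of 62.6% to 76.2%. Every cell had a read, and after subtraction of the expected stray reads 83.5% of cells still had at least 10 CPM.

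Cdkn1b, which encodes p27, had 0 to 516 CPM, with a median of 5.99 and a mean of 27.8 ± 60.8 CPM. It was above background in 36.2% of cells, and 44 cells had no read. Cdkn2c, which encodes p18, had a median of 0, a highest value of 275 and a mean of 13.8 ± 36.9 CPM, and was above background in 20.2% of cells. For both, most cells were not above background.

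Cdkn1c, an imprinted gene that encodes p57, had a read in 16 cells. Its highest value was 163.1 CPM, its mean was 1.64 ± 12.8 CPM, and 6 cells (3.19%) were above background. It failed the filter of 10 CPM in at least 10% of cells, so the counts of relations below cover the other 9 genes.

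Of the D cyclins, Ccnd2 led. Ccnd2 (ENSMUSG00000000184.12, chromosome 6, 127125162 to 127152193, minus strand) had 57.6 to 6624 CPM, with a median of 1062 and a mean of 1326 ± 1071 CPM. It was above background in 81.9% of cells. Its highest cell stood far above the median.

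Ccnd1 (ENSMUSG00000070348.5, chromosome 7, 144929931 to 144939925, minus strand), a D cyclin induced by growth signals, had 5.18 to 1346 CPM, with quartiles at 41.4 and 338 and a mean of 218 ± 221 CPM. Ccnd3 had 0 to 518 CPM, with a median of 28.99 and a mean of 62.6 ± 80.5 CPM. The shares of cells above background were 64.4% for Ccnd1 and 54.3% for Ccnd3, so each D cyclin was found in most cells.

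Cdk4 and Cdk6, the catalytic partners of the D cyclins, were both widespread. Cdk4 had 8.37 to 1063 CPM, with a median of 240 and a mean of 284 ± 208 CPM, and was above background in 79.3% of cells. Cdk6 had 3.50 to 1147 CPM, with a median of 134.2 and a mean of 178.7 ± 177.9 CPM, and was above background in 70.2%. Rb1, the target of these kinases, was scarce, with 0 to 235 CPM, a median of 2.997 and a mean of 18.5 ± 35.6 CPM. It was above background in 28.7% of cells.

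To compare genes, counts were divided by the length of each gene's exons and scaled to TPM (transcripts per 1000000). The order of mean TPM was Ccnd2 at 330 ± 275, Cdkn1a at 303 ± 302, Cdk4 at 202 ± 148.8, Ccnd1 at 107.2 ± 108.1 and Cdk6 at 29.4 ± 28.4 (SD over cells). Lower stood Ccnd3 at 16.5 ± 21.001, Cdkn1b at 14.4 ± 31.9, Cdkn2c at 11.9 ± 32.3, Rb1 at 7.09 ± 13.6 and Cdkn1c at 1.92 ± 15.7. Every neighbouring pair in this order differed by less than the SD of its higher gene.

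**Figure D1:**
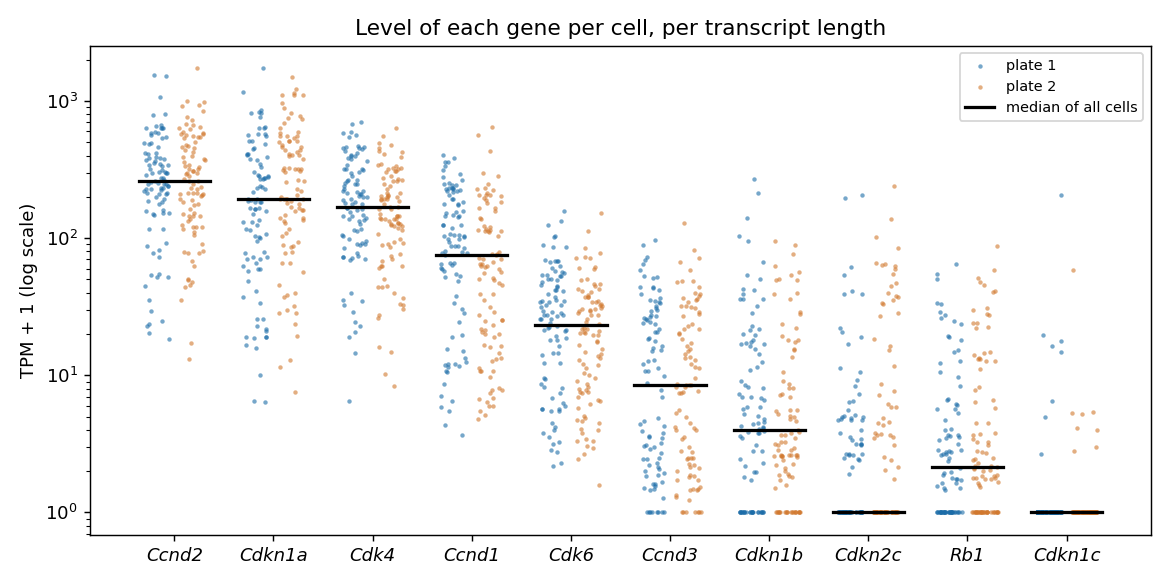
The plot gives TPM + 1 on a log scale for each of the 10 genes, 1 point per cell, with plate 1 in blue, plate 2 in orange and a black line at the median of all cells. Ccnd2, Cdkn1a, Cdk4 and Ccnd1 stand highest, Cdkn2c and Cdkn1c have a median of 0, and both plates cover similar ranges.

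Within each family 1 gene was usually the highest of a cell in TPM. Ccnd2 was the highest D cyclin in 84.6% of cells (exact 95% interval 78.6% to 89.4%), Ccnd1 in 27 cells and Ccnd3 in 2. Over all cells Ccnd2 made up 72.8% of the summed D cyclin TPM, Ccnd1 23.6% and Ccnd3 3.63%. Cdk4 exceeded Cdk6 in 93.6% of cells, and Cdkn1a was the highest of the 4 inhibitors in 90.4%. Stray reads were not subtracted from these TPM. Ccnd2 was above background in 81.9% of cells, Cdk4 in 79.3% and Cdkn1a in 69.7%, so some leads were not above background. The same gene led in each family on both plates.

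For each gene the plate means differed by less than the SD over cells. Mean CPM on plate 2 divided by that on plate 1 was 1.32 for Cdkn1a, 1.06 for Ccnd2, 0.780 for Ccnd1, 0.929 for Ccnd3, 0.835 for Cdk4 and 0.764 for Cdk6. For the scarcer genes it was 0.653 for Cdkn1b, 1.73 for Cdkn2c, 1.37 for Rb1 and 0.349 for Cdkn1c. Median Ccnd1 was 114.003 CPM on plate 2 and 194 CPM on plate 1, and Ccnd1 was above background in 55.3% of cells on plate 2 and 73.4% on plate 1.

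The spread between cells was set against the ERCC spike-ins, RNA added in the same amount to every well. Of the 6 genes with a mean of at least 50 CPM, 3 had a squared coefficient of variation 2 or more times that of spike-ins at their level, on each plate, as had 15% of 3685 genes. On the plate nearer to the trend, the ratio was 7.00 for Ccnd2, 5.27 for Cdkn1a and 2.17 for Cdk6. It was 1.99 for Ccnd1, 1.84 for Cdk4 and 1.16 for Ccnd3, below the mark. Cyclin D2 and p21 thus varied most among these genes relative to spike-ins of the same level.

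p21 was higher and cyclin D2 lower in cells with more Krt10, while no other of the genes passed the same mark. A gene was called if each plate gave a Spearman's rho with Krt10 of at least 0.3 (higher) or at most -0.3 (lower). Across all cells rho was 0.534 for Cdkn1a, with 0.490 on plate 1 and 0.545 on plate 2. For Ccnd2 it was -0.462, with -0.412 on plate 1 and -0.539 on plate 2. The cells share plates, and their depth and stray reads differ, so these values are descriptions with no p-value.

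Of the 9 genes that passed the filter, 1 was called higher and 1 lower, against 0.631% called higher and 0.471% called lower of all 9344 genes. By rho with Krt10 over all cells, Cdkn1a ranked 14 from the highest and Ccnd2 13 from the lowest. The median rho of the 9 was -0.118, against -0.00458 over all genes. The calls thus fell on 1 inhibitor and 1 cyclin.

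Cdkn1b had a rho of -0.177 and Cdkn2c of -0.0651 with Krt10, and neither was called. Ccnd1 had -0.184, with -0.260 on plate 1 and -0.0446 on plate 2, and Ccnd3 had 0.0362. Cdk4 had -0.118, Cdk6 -0.135 and Rb1 0.0166, and Cdkn1c, outside the filter, had -0.0216. Of the 3 D cyclins 1 was thus called, and their summed TPM, mostly Ccnd2, had a rho of -0.459.

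**Figure D2:**
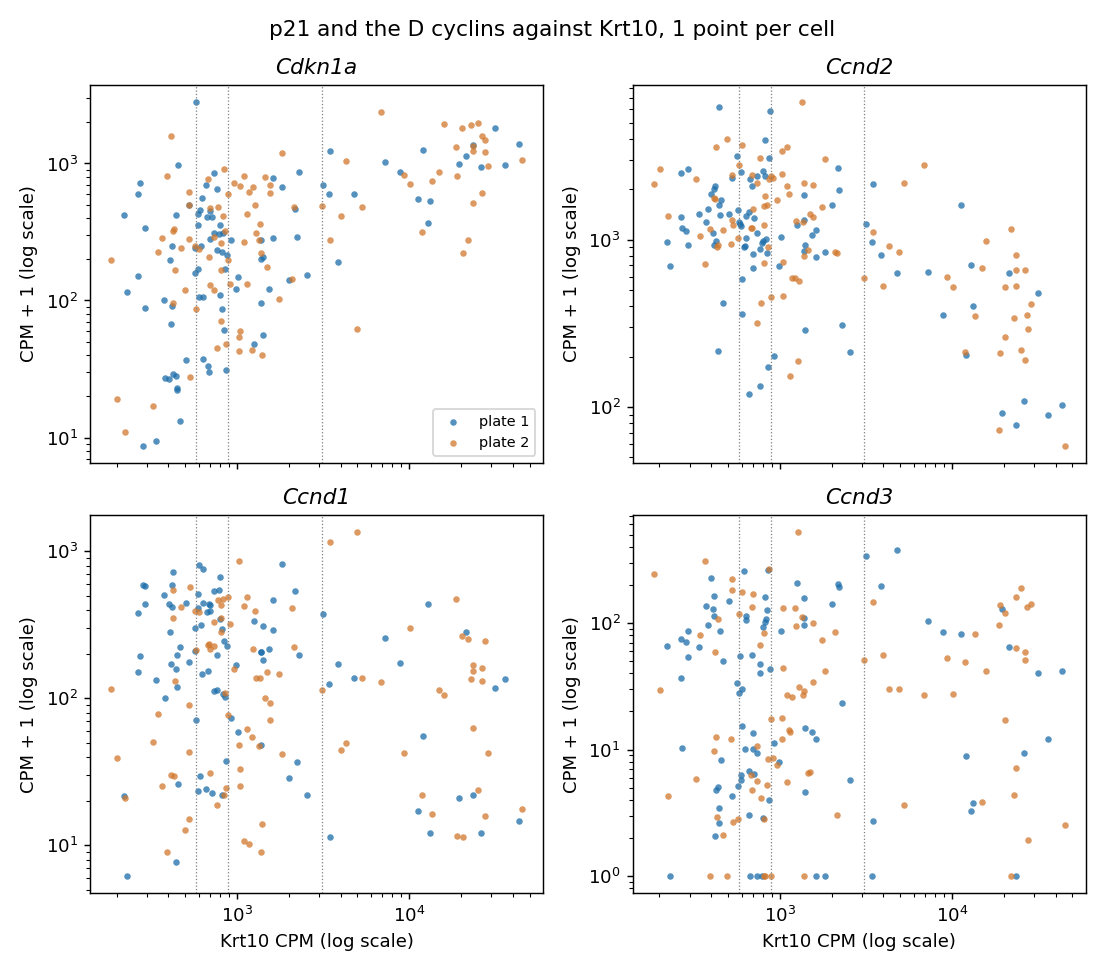
Each panel plots CPM + 1 of Cdkn1a, Ccnd2, Ccnd1 or Ccnd3 against Krt10 CPM, both on log scales, 1 point per cell with plate 1 in blue and plate 2 in orange, and dotted lines at the limits of the 4 Krt10 ranges. Cells of the highest Krt10 range lie high for Cdkn1a and low for Ccnd2, while Ccnd1 and Ccnd3 spread over their whole range at every Krt10 level.

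Krt10 was itself above background in 62 cells (32.98%), so the cells were ordered by Krt10 CPM and divided into 4 ranges of 47. Median Krt10 was 421, 738, 1375 and 15834 CPM from the lowest range to the highest, and it was above background in 2, 4, 11 and 45 cells. The third range ended at 2548 CPM and the highest began at 3105 CPM. The lower 3 ranges therefore lay close to the level of stray Krt10 reads. Median Krt14, a basal keratin, was 37658.5, 37656.7, 35543.7 and 13154.7 CPM from the lowest Krt10 range to the highest. It was above background in 47, 47, 46 and 26 of 47 cells, so the highest range held many cells low in this basal keratin.

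Median Cdkn1a was 166.4, 248, 274 and 936 CPM from the lowest Krt10 range to the highest. The cells had 7.70 to 2803 CPM in the lowest range and 61.3 to 2363 CPM in the highest, so the ranges overlapped. The medians of the highest and the lowest range differed by 5.62 times, and by 6.96 times after stray reads were subtracted. Cdkn1a was above background in 27, 31, 28 and 45 of 47 cells. On each plate the highest range had the highest median, 958 CPM on plate 1 and 863 CPM on plate 2. Most of the difference lay between that range and the other 3.

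Median Ccnd2 ran the other way, with 1384, 1214, 1134 and 528 CPM from the lowest Krt10 range to the highest. The cells had 215 to 6187 CPM in the lowest range and 57.6 to 2784 CPM in the highest, again with overlap. The median of the highest range was 0.382 times that of the lowest, and 0.308 times after subtraction of stray reads. Ccnd2 was above background in 47, 42, 39 and 26 of 47 cells. On each plate the highest range had the lowest median, 554 CPM on plate 1 and 528 CPM on plate 2.

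The other D cyclins had no such order. Median Ccnd1 was 158.1, 234 and 145.6 CPM from the lowest Krt10 range to the third, and in the highest 0.740 times that of the lowest. Median Ccnd3 was 32.8, 12.5, 24.8 and 48.5 CPM over the 4 ranges. The median of the summed D cyclin TPM was 489, 494, 433 and 213. Without subtraction of stray reads, Ccnd2 stayed the highest D cyclin in TPM in 44, 37, 41 and 37 of 47 cells. In the highest range Ccnd2 was above background in 26 of 47 cells, so some of its leads there were not above background.

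The kinases had medians closer to each other than Ccnd2 had. Median Cdk4 was 269, 249, 194 and 206 CPM and median Cdk6 was 195, 146.7, 125.1 and 125.7 CPM from the lowest Krt10 range to the highest. Among the scarce genes, median Cdkn1b was 5.85, 11.9, 5.54 and 3.20 CPM, so that of the highest range was 0.546 times that of the lowest. After subtraction of stray reads it was 0.131 times, with medians of 0.787 CPM in the highest range and 6.03 CPM in the lowest, near the level of single reads. Median Rb1 was 2.16, 4.38, 3.84 and 2.77 CPM. For each of these genes the cells of all 4 ranges overlapped.

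The balance of p21 to cyclin D2 was taken per length. Cdkn1a TPM exceeded Ccnd2 TPM in 10, 12, 18 and 41 of 47 cells from the lowest Krt10 range to the highest, which is 21.3%, 25.5%, 38.3% and 87.2%. The exact 95% intervals were 10.7% to 35.7% in the lowest range and 74.3% to 95.2% in the highest. Over all cells Cdkn1a exceeded Ccnd2 in 81, or 43.1%. The median log2 ratio of Cdkn1a to Ccnd2 TPM was -1.64 in the lowest range and 2.09 in the highest. Stray reads were not subtracted from these TPM. The intervals treat cells as independent draws and cover no difference between animals.

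**Figure D3:**
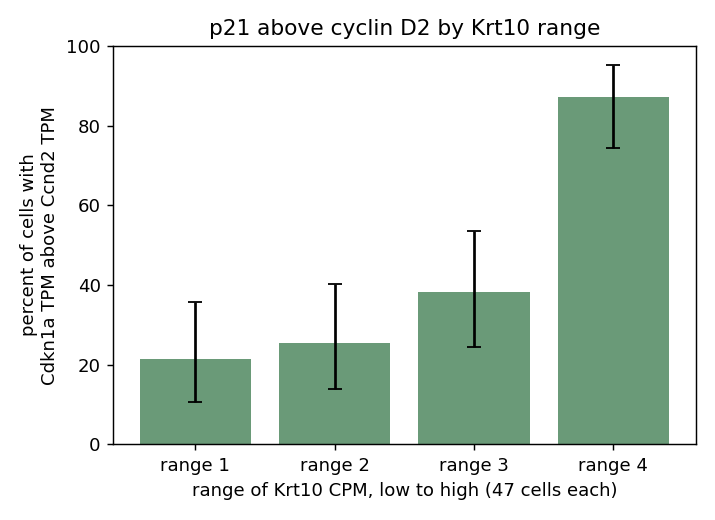
Bars give the percent of cells in which Cdkn1a TPM exceeded Ccnd2 TPM in each of the 4 Krt10 ranges of 47 cells, with exact 95% intervals. The share is 21.3% in the lowest range and 87.2% in the highest. The intervals treat cells as independent draws and are not a test between ranges.

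The relation was weak among cells of the lower ranges. Within the highest Krt10 range, over 47 cells, rho with Krt10 was 0.479 for Cdkn1a and -0.610 for Ccnd2. In the cells of the lower 3 ranges it was 0.210 for Cdkn1a and -0.139 for Ccnd2. The limit between them was set on Krt10 after the data were seen.

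Under spike-in scaling Ccnd2 lost its call with Krt10 and Cdkn1a kept it. With each cell scaled by its spike-in total, rho with Krt10 was 0.585 for Cdkn1a and -0.167 for Ccnd2, and Ccnd2 was no longer called. Under that scaling 258 genes were called higher and 0 lower with Krt10, against 59 higher and 44 lower under CPM. With calls shifted to the higher side over all genes, a positive call was hardly at risk. This scaling therefore does not compare how firm the calls of Cdkn1a and Ccnd2 were. With Krt1, the partner keratin of Krt10, in its place, rho was 0.463 for Cdkn1a and -0.313 for Ccnd2, which then missed the mark on 1 plate.

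Depth and stray reads moved with Krt10 itself. From the lowest Krt10 range to the highest, median depth was 503608, 344172, 268646 and 377328 counts. The median expected stray share was 7.46%, 10.9%, 12.8% and 8.77%. The part of depth in the steps between ranges was not tested. Krt10 had a rho of -0.258 with total counts and 0.225 with the expected stray share, against -0.0481 and 0.0148 for Cdkn1a and -0.00990 and 0.0460 for Ccnd2. With total counts held constant, rho with Krt10 was 0.540 for Cdkn1a and -0.481 for Ccnd2. With stray reads subtracted it was 0.531 and -0.475 for the same genes.

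Hair follicle markers also moved with Krt10. Of 8 markers, 3 passed the filter, and the summed list was mostly Postn, with a mean of 158.9 CPM for that gene. The summed level had medians of 229, 194, 160 and 82.2 CPM from the lowest Krt10 range to the highest, with cells from 3.71 to 1261 CPM, and Cd34 had no read. The summed level had a Spearman's rho of -0.287 with Cdkn1a, 0.225 with Ccnd2 and -0.326 with Krt10. Its part in the result was not tested.

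Among pairs of the genes themselves, p21 and cyclin D2 stood out. Of 36 pairs of filtered genes, 1 passed the mark of -0.3 and 0 that of 0.3, and 32 had an absolute rho under 0.2. Cdkn1a and Ccnd2 had a rho of -0.415, with -0.396 on plate 1 and -0.444 on plate 2. Of all 9344 genes, 0.31% were called higher and 0.342% lower with Cdkn1a. With Krt10 held constant, rho of the pair was -0.225.

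The next pairs were Cdkn1a with Ccnd1 at -0.239, with Cdkn1b at -0.230 and with Cdk6 at -0.205, none of them called. With Ccnd2 held constant, Cdkn1a still had a rho of 0.424 with Krt10. With Cdkn1a held constant, Ccnd2 had -0.312. Both values kept their sign.

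None of the 9 filtered genes was called with Mki67 or Top2a. Over all genes, 0.107% were called higher and 0% lower with Mki67, and 0.235% higher and 0% lower with Top2a. Cdkn1a had a rho of -0.00232 with Mki67 and -0.173 with Top2a. Ccnd2 had -0.157 with Mki67 and 0.103 with Top2a, and the Top2a value was -0.0955 on plate 1 and 0.284 on plate 2. With shares this low over all genes, 0 calls among 9 genes say little about them. By rho over all cells, Cdkn1a ranked 41 from the lowest of 9344 genes with Top2a. Of these genes 70.5% had a rho above 0 with Top2a, with a median of 0.0437, so a small negative rho ranks low. Top2a itself had a rho of -0.247 with total counts and 0.299 with the expected stray share. With Mki67, Ccnd2 ranked 9195 from the highest, near the low end, and Cdkn1b 9241 from the lowest, near the high end.

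Ccnd1 had a rho of -0.0626 with Mki67 and 0.141 with Top2a, and Ccnd3 had 0.0850 and 0.156. The highest value with Mki67 was that of Cdkn1b, 0.219, with 0.310 on plate 1 and 0.0985 on plate 2. Cdkn2c had 0.132 with each. Cdk4, Cdk6 and Rb1 lay between -0.0369 and 0.132. Mki67 and Top2a themselves had a rho of 0.346, with 0.464 on plate 1 and 0.214 on plate 2, so the pair missed the mark on plate 2. Krt10 had -0.00551 with Mki67 and -0.0978 with Top2a.

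**Figure D4:**
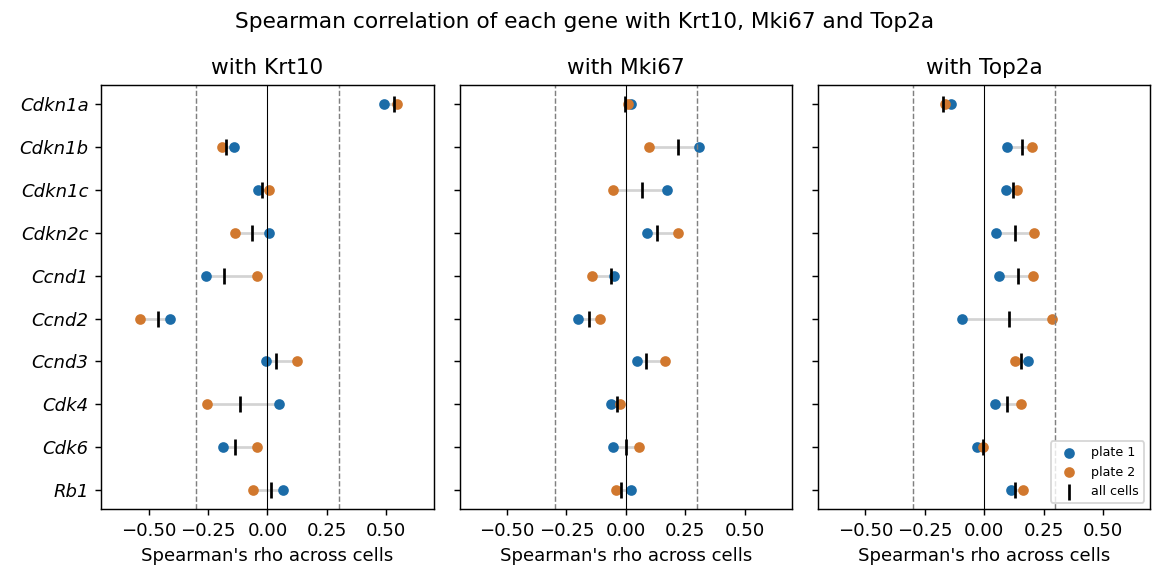
Each panel plots Spearman's rho across cells of the 10 genes with Krt10, Mki67 or Top2a, with plate 1 in blue, plate 2 in orange and a black mark for all cells, and dashed lines at -0.3 and 0.3. Cdkn1a and Ccnd2 lie beyond the lines on both plates with Krt10, and no gene does with Mki67 or Top2a.

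Cells with at least 10 CPM of both Mki67 and Top2a numbered 46, 28 on plate 1 and 18 on plate 2, and cells with neither numbered 74. Either gene lay between 5 and 20 CPM, close to the limit, in 20 cells with both and 39 cells with neither. Median depth was 236650 counts in cells with both and 404482 in cells with neither, and the median expected stray share was 13.4% in cells with both and 8.51% in cells with neither. After subtraction of stray reads, 27 cells had both and 97 neither. The part of depth in these classes was not tested.

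Median Cdkn1a was 261 CPM (32.4 to 1937) in cells with both cycling genes and 345 CPM (8.43 to 2803) in cells with neither. After subtraction of stray reads it was 232 CPM in cells with both and 374 CPM in cells with neither. Median Ccnd2 was 972 CPM (119.1 to 5823) in cells with both and 963 CPM (77.2 to 6624) in cells with neither. The order differed between plates. On plate 1 median Ccnd2 was 929 CPM in cells with both and 1152 CPM in cells with neither. On plate 2 it was 1088 CPM in cells with both and 869 CPM in cells with neither. After subtraction of stray reads it was 895 CPM in cells with both and 1051 CPM in cells with neither. Median Ccnd1 was 160.8 CPM (14.1 to 580) in cells with both and 133.2 CPM (7.98 to 1346) in cells with neither. The classes overlapped almost wholly for these 3 genes.

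Median Ccnd3 was 51.4 CPM in cells with both cycling genes and 28.2 CPM in cells with neither, and after subtraction 85.4 CPM in cells with both and 23.9 CPM in cells with neither. On plate 1 the subtracted medians were 89.3 CPM in cells with both and 32.6 CPM in cells with neither. On plate 2 they were 14.6 CPM in cells with both and 17.8 CPM in cells with neither, so the order of the classes did not hold on both. Median Cdkn1b was 9.33 CPM in cells with both and 3.50 CPM in cells with neither. Median Cdk4 was 242 CPM in cells with both and 228 CPM in cells with neither, and median Cdk6 was 134.2 CPM in cells with both and 131.3 CPM in cells with neither. Median Rb1 was 5.79 CPM in cells with both and 2.83 CPM in cells with neither, near the level of single reads.

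**Figure D5:**
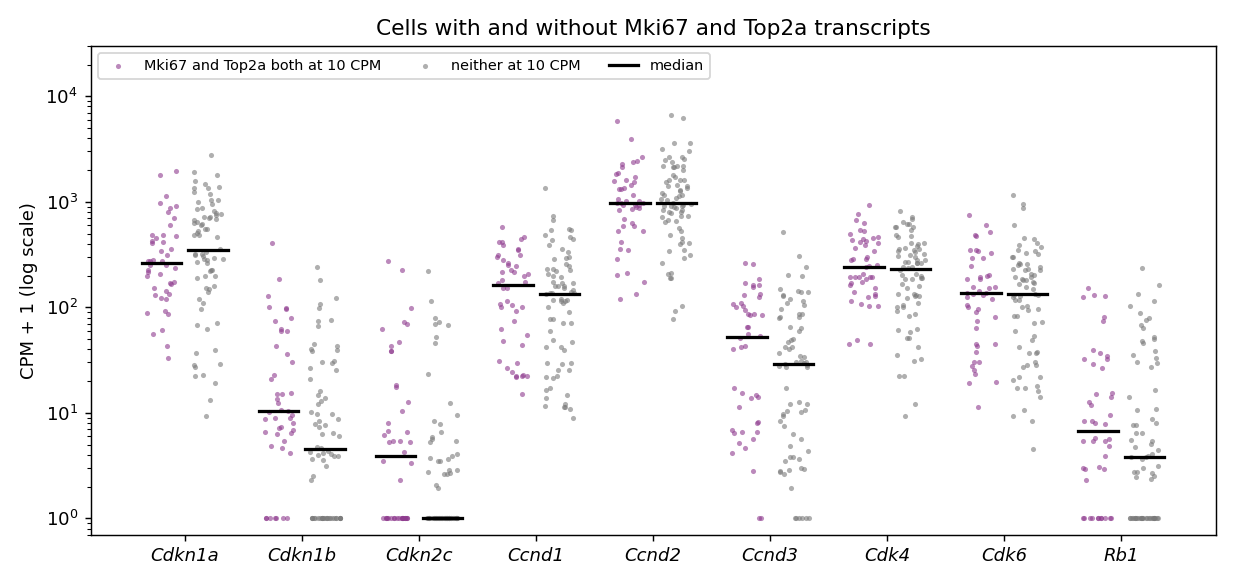
The plot gives CPM + 1 on a log scale for 9 of the genes in the 46 cells with at least 10 CPM of both Mki67 and Top2a (purple) and the 74 cells with neither (grey), with black lines at the medians. The classes overlap for every gene. The medians of Ccnd2 are 972 CPM in cells with both and 963 CPM in cells with neither, with opposite orders on the plates.

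Of the 46 cells with both Mki67 and Top2a, 7 lay in the highest Krt10 range of 47 cells and 39 in the lower 3 ranges. After subtraction of stray reads, 3 lay in the highest range and 24 in the lower 3. Median Cdkn1a was 868 CPM (274 to 1937) in these 7 and 943 CPM (61.3 to 2363) in the other 40 cells of the range. In the lower 3 ranges it was 227 CPM (32.4 to 980) in 39 cells with both and 238 CPM (7.70 to 2803) in the other cells of those ranges. The cells with and without the cycling genes overlapped in both.

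Genes with patterns most like each of the 4 were ranked by rho on the plate where it was smaller. For Cdkn1a these were Ly6d, of the Ly6 family of surface proteins, at 0.578, Calm4 at 0.555, Krtdap at 0.520, Krt10 at 0.490 and Krt1 at 0.459, over 94 cells a plate. For Ccnd2 they were the decoy receptor Il1r2 at 0.502, the basal keratin Krt15 at 0.497, the integrins Itga6 at 0.460 and Itga3 at 0.413, and the replication licensing gene Mcm5 at 0.405. No gene reached 0.3 with Ccnd1 or Ccnd3. Itga6 encodes the integrin used for sorting.

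Keratinocyte marker lists were set against the same genes. Of 11 early differentiation genes besides Krt10, 6 were called higher with Cdkn1a and 6 lower with Ccnd2, against 0.31% and 0.193% of all genes. Of 13 basal keratinocyte genes, 6 were called lower with Cdkn1a and 5 higher with Ccnd2, against 0.342% and 0.278%. The median rho of these early genes was 0.428 with Cdkn1a and -0.317 with Ccnd2. That of the basal list was -0.348 with Cdkn1a and 0.326 with Ccnd2, and that of all genes was -0.0157 with Cdkn1a and 0.0155 with Ccnd2. Of 5 late differentiation genes that passed the filter, 0 were called with either.

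The other genes of the pathway were set against the same shares over all genes. Of 4 further Cdk inhibitors, 2 passed the filter. Cdkn3, a phosphatase that acts on Cdks, had a mean of 18.1 ± 55.7 CPM and was called higher with Mki67 at 0.380, as were 0.107% of all genes. Cdkn2d, which encodes p19, averaged 13.95 ± 42.6 CPM and had 0.295 with Mki67, not called. Cdkn2b, which encodes p15, averaged 8.20 ± 30.5 CPM and did not pass the filter. None was called with Krt10.

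Of 11 filtered genes among the pocket proteins and E2F factors, 1 was called higher and 0 lower with Krt10, against 0.631% and 0.471% of all genes, and 0 were called with Mki67 or Top2a. E2f2, an activator E2F, averaged 29.1 ± 95.4 CPM and was the gene called, at 0.305. The most abundant were Tfdp1 and Tfdp2, partners of E2F, at 60.2 ± 57.1 and 52.3 ± 73.7 CPM, and the repressor E2f4 at 41.8 ± 58.7 CPM. These had rho of -0.126, 0.0331 and 0.0757 with Krt10. The median rho of the list with Krt10 was 0.00713, against -0.00458 over all genes.

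Of 10 later cyclins and Cdks that passed the filter, 0 were called with Krt10, 1 higher with Mki67 and 3 higher with Top2a. Over all genes, 0.107% were called higher with Mki67 and 0.235% with Top2a, and with Krt10 0.631% were called higher and 0.471% lower. Ccna2, cyclin A2, had 0.403 with Mki67 and 0.399 with Top2a. Ccnb2, a mitotic cyclin, and its kinase Cdk1 had 0.321 and 0.439 with Top2a. The most abundant were Cdk7, its partner Ccnh and Cdk2, at 72.9 ± 96.1, 69.2 ± 76.1 and 39.2 ± 64.9 CPM, none of them called.

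Of 21 filtered S phase genes, 4 were called higher with Top2a and 1 lower with Krt10, against 0.235% and 0.471% of all genes. With Mki67 0 of the 21 were called, and their median rho was 0.0224, against 0.0119 over all genes. Those with Top2a were Mcm2 at 0.356, Rrm2 at 0.462, Slbp at 0.317 and Uhrf1 at 0.379, with roles in replication, nucleotide supply, histone RNA and maintenance of methylation. Mcm5 had -0.379 with Krt10 and was called lower with Cdkn1a at -0.345 and higher with Ccnd2 at 0.422. All 21 had a rho below 0 with Krt10, with a median of -0.221, as had 52.1% of all genes. All 21 were also below 0 with Cdkn1a, with a median of -0.192, as were 56.7% of all genes. All 21 were above 0 with Ccnd2, with a median of 0.197, as were 56.9% of all genes. These signs are over all cells. On plate 1 Rfc2 was above 0 with Krt10 (0.0753) and Cdc45 with Cdkn1a (0.0805). Rrm1 (-0.0431), Rfc2 (-0.0496), Cdc45 (-0.0133) and Fen1 (-0.0627) were below 0 with Ccnd2 there. Single S phase genes other than Mcm5 did not pass the mark with Cdkn1a or Ccnd2. Genes of G2 and mitosis, a list that includes Mki67 and Top2a, differed. Of its 15 filtered genes, 14 were below 0 with Ccnd2 over all cells, with a median of -0.152, as were 43.1% of all genes. On plate 1 all 15 were below 0. On plate 2 Top2a (0.284), Cdc20 (0.120), Tacc3 (0.120), Plk1 (0.0325) and Cenpa (0.0232) were above 0 and the others below. With Cdkn1a 11 were below 0 over all cells, with a median of -0.0235. Leaving out the gene itself, 4 of 14 were called higher with Mki67 and 1 of 14 with Top2a, against 0.107% and 0.235% of all genes.

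Genes that act on p21 and p27 protein were counted in the same way. Of 11 filtered genes of p27 and p21 turnover, 0 were called with Krt10, Mki67 or Top2a, where all genes gave at most 0.631% in any direction, so the count says little about the list. The most abundant were Ddb1 and Skp1a, parts of ubiquitin ligases, and the kinase Gsk3b, at 320 ± 225, 265 ± 169.4 and 235 ± 164.8 CPM. Their rho with Cdkn1a was -0.147, 0.0521 and -0.108.

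Of 14 filtered genes of p53 and its targets, 0 were called with Krt10 or with Cdkn1a, itself a p53 target. Over all genes, 0.31% were called higher and 0.342% lower with Cdkn1a, and 0.631% higher and 0.471% lower with Krt10. These counts too say little about the list. The median rho of the list with Cdkn1a was 0.0387, against -0.0157 over all genes. Trp53, which encodes p53, averaged 177.6 ± 143.5 CPM, had -0.224 with Cdkn1a and was called higher with Ccnd2 at 0.379, as were 0.278% of all genes. The target genes Phlda3 and Trp53inp1 averaged 196 ± 164.7 and 58.8 ± 108.4 CPM and had 0.0371 and -0.0313 with Cdkn1a.

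Of 12 filtered upstream regulators of p21 and cyclin D, 1 was called lower and 0 higher with Krt10, against 0.471% and 0.631% of all genes. Trp63, which encodes the basal factor p63, averaged 246 ± 190 CPM and was called lower with Krt10 at -0.461, with -0.381 with Cdkn1a and 0.344 with Ccnd2, neither called. Klf4, a factor of epidermal differentiation, averaged 410 ± 292 CPM and had 0.274 with Krt10 and 0.246 with Cdkn1a. Ctnnb1, which encodes beta-catenin, averaged 289 ± 198 CPM and had 0.0359 with Krt10.

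Several of the genes overlap others, and no source states whether strand was used in counting. Genes annotated on the other strand are AC167363.2 for Cdkn1a, LTO1 for Ccnd1, Gm43126 and 9330179D12Rik for Ccnd2, Bysl for Ccnd3 and Tspan31 for Cdk4. Rb1 overlaps Rcbtb2 and Lpar6, among others, Cdk6 overlaps Gm17590 and Gm42435, and Cdkn1c overlaps Gm44732. Reads of these overlaps cannot be told apart. Cdkn1b and Cdkn2c overlap no other gene.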

How the data were processed

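Raw read counts per gene and cell were deposited by the authors, without normalization. Tools listed in the submitters' processing notes are HTSeq 0.6.0, STAR 2.5.2b and cutadapt 1.13, with the GRCm38 build. Parameters and annotation were not given in the sources used here. Without molecular identifiers, counts are of amplified copies. The exact intervals treat cells as independent draws and cover neither amplification nor differences between animals.

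Counts were scaled to CPM on the total over 49585 genes, with 92 spike-ins left out. TPM used exon lengths of GENCODE M21, which covered 49326 identifiers. Spearman's rho was computed over all cells and on each plate. A call needs a rho of 0.3 or beyond, in the same direction, on each plate, among genes that reach 10 CPM in 10% of cells or more. Stray reads were estimated from 74 genes with at least 100 reads and 80% of them in 1 well, leaving out values over 2% of the source. Doublets were not called, since 1 cell was sorted per well. Python 3.11.15, scipy 1.17.1, R 4.3.3 and scran 1.30.0 were used.

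The named genes were the 10 genes, Krt10, Mki67 and Top2a, the 5 most alike at 0.3 or more, and, of each pathway list, those called and the 3 most abundant. The genes and lists were chosen with earlier results of these data known. Alternatives covered scaling, stray reads, depth, cells left out, the correlation measure, the keratin, the filter and the limit.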

Additional observations from a re-analysis of the deposited data

How the results depend on the processing

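Across 30 relations and up to 17 alternatives, 490 values were computed, of which 481 kept their side of the mark, 4 lost the call, 5 gained it and 0 called values changed sign. Ccnd2 with Krt10 lost its call under spike-in scaling (-0.167), with Krt1 in place of Krt10 (-0.313) and outside the highest Krt10 range (-0.139), where Cdkn1a did too (0.210). Over all its alternatives Cdkn1a with Krt10 had 0.210 to 0.585 and Ccnd2 -0.610 to -0.139. Cdkn1b with Mki67 gained a call on plate 1 alone (0.310) and within the highest Krt10 range (0.347). Within that range Cdkn2c with Krt10 (0.408), Cdk6 with Top2a (-0.322) and Rb1 with Top2a (-0.394) did too. Centring ranks within lettered rows and the restrictions to Krt10 ranges were chosen after seeing the data, and the causes were not tested.

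The percent of genes called higher and lower also moved. With Krt10, these were 1.134% and 0.920% for Pearson r with a pseudocount of 1, 1.23% and 0.888% with 10, 1.01% and 1.05% on plate 1, 2.34% and 1.96% on plate 2, and 2.76% and 0% under spike-in scaling. They were 0.0856% and 0% outside the highest range, 1.39% and 2.28% within it, 1.82% and 1.96% at a limit of 0.2 and 0.268% and 0.161% at 0.4. With Mki67, higher genes were 0.31% and 0.471% for the pseudocounts, 0.193% under spike-in scaling, 0.0428% with row-centred ranks and 0.0107% at 0.4. Higher and lower were 1.25% and 0.171% on plate 1, 0.428% and 0.0749% on plate 2, 0.203% and 0.0214% outside the highest range, 0.610% and 0.664% within it, and 0.631% and 0.0856% at 0.2. With Top2a, higher genes were 0.396% and 0.621% for the pseudocounts, 0.867% under spike-in scaling, 0.128% with cells thinned to 75000 counts, 0.107% with stray reads subtracted and 0.0428% at 0.4. Higher and lower were 1.93% and 0.0321% on plate 1, 0.942% and 0.0642% on plate 2, 1.10% and 0.396% within the highest range, and 1.39% and 0.0428% at 0.2. A single-plate call needs the limit on that plate alone.

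No paired analysis was possible because all cells belong to 1 group. Depth limits Cdkn1c, Cdkn2c, Cdkn1b and Rb1, whose values lie near single reads in most cells.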
